A study of Mus musculus with 8 samples.

Results

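The baseline kidney transcriptome described here is that of the vehicle group of a study of bisphenol A (BPA) in mouse kidney. Its members are the protein-coding genes whose mean over the 4 vehicle libraries was at least 1 FPKM, a unit in which read fragments are scaled to the length of the gene and to a library size. Of 54532 genes in the table, 22046 were protein-coding, and 10283 of these (46.6%) were members. The other 11763 protein-coding genes lay below the threshold, and 5302 of them were at 0 in all 4 libraries. In every library separately, 9477 members reached 1 FPKM, and 31 members were at 0 in at least 1 library.

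The libraries hold polyadenylated RNA of kidney from mice that received vehicle and no BPA. Their titles name the kidney and not which part of it was taken. Their names give the animals as ICR, an outbred stock, so genetic differences between animals may add to the spread. The sources used here do not give age, sex, genotype, the vehicle, its route or the length of treatment. Nothing in the labels says whether 4 different animals were sampled, and the spread between libraries given as SD may thus be partly or wholly technical. The 4 BPA libraries of the study enter no value below. With a single group there was nothing to test, and all values are descriptions.

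The kidney filters blood in the glomerulus, whose podocytes form the filtration slits, and reclaims most of the filtrate in the proximal tubule, an epithelium with a brush border and many mitochondria. The loop of Henle, the distal convoluted tubule, the connecting tubule and the collecting duct then adjust salt, water, acid and divalent ions, each with its own set of carriers and channels. The proximal tubule makes up most of the mass of the cortex and also produces glucose, burns fatty acids and excretes organic anions and cations, among them many drugs.

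Read totals recovered from the table ran from 15944081 to 17351540 per library. FPKM summed over all genes was 376840, 374153, 425215 and 401087 in replicates 1 to 4, so it was highest in replicate 3. Levels below are not rescaled for this difference unless stated. Members held 94.0 ± 0.193% of the summed FPKM (SD, n = 4). Across members, Pearson correlations of log2(FPKM + 1) between pairs of libraries ran from 0.956, between replicates 1 and 4, to 0.983, between replicates 1 and 2, as a description across genes. Transcripts typical of tissue outside the kidney, or of urothelium, were found in several libraries, and those of skeletal muscle in replicate 4. The summed FPKM of 10 skeletal muscle genes was 277 there and 0.556 to 1.10 in the other libraries, and that of 8 white fat genes was 299, against 3.53, 87.2 and 33.3 in replicates 1, 2 and 3. Sums of 5 brown fat genes and of 9 urothelial genes were highest in replicate 2, at 18.6 and 7.81 FPKM. Cox7a1, found in every library, held 51.7% of the mean brown fat sum. Without replicate 4, 132 members would fall below the threshold, against 90, 100 and 60 without replicates 1, 2 and 3.

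Just inside the threshold were Pot1a (1.0019 FPKM), Anapc10 (1.0018 FPKM) and Dcdc2a (1.0002 FPKM). Just outside were Slc36a4 (0.9995 FPKM), Lins1 (0.9992 FPKM) and Snapc1 (0.9989 FPKM). Each of these 6 genes was above the threshold in some libraries and below it in others, so membership at the border depends on single libraries.

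The ranking was steep. The median member had a mean of 6.49 FPKM, the quartiles were 2.88 and 16.5 FPKM, and 1% of members exceeded 322 FPKM. By level, 6416 members lay from 1 to 10 FPKM, 3414 from 10 to 100, 432 from 100 to 1000 and 21 at 1000 FPKM or more. Those 21 genes held 36.4% of the summed FPKM, and the 6416 lowest held 6.73%. Of the summed FPKM, 25% came from 5 genes, 50% from 131, 75% from 1263 and 90% from 5210.

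**Figure D1:**
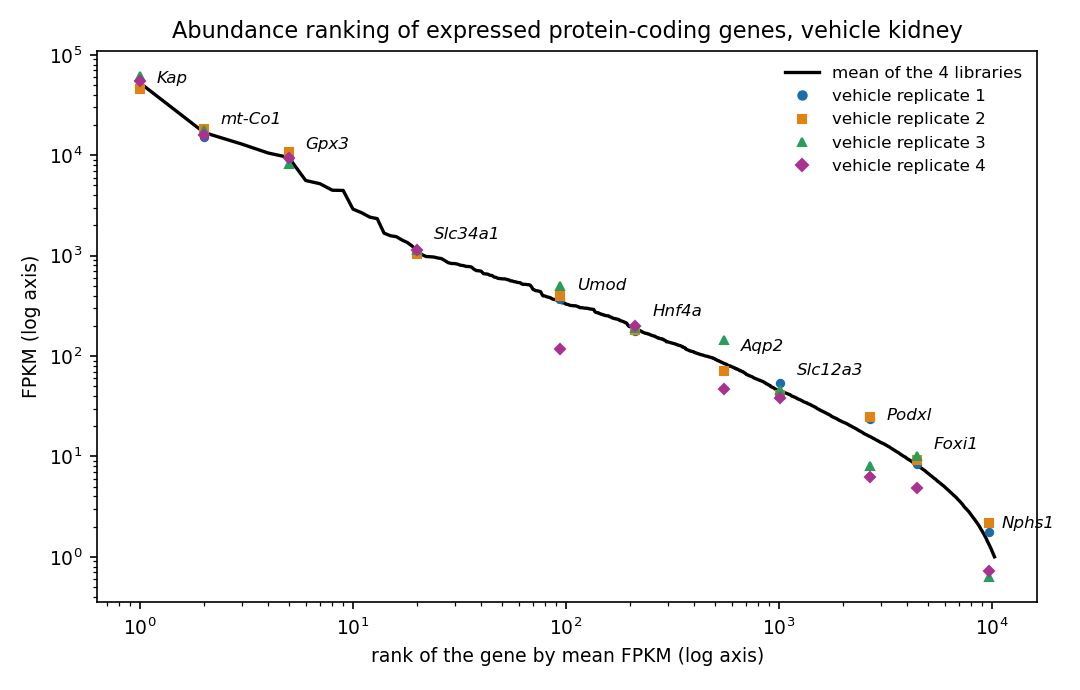
Mean FPKM of each of the 10283 members (line) against its rank, both on log axes, with the 4 library values of 11 named genes as points. Kap stands at 52572 FPKM and the curve passes 1000 FPKM at 21 genes. The points of Umod, Aqp2, Podxl and Nphs1 lie farther from the line than those of Slc34a1 or Hnf4a.

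Kap, the kidney androgen-regulated protein secreted by proximal tubule cells, was the most abundant transcript. Its level was 47871, 45458, 61860.5 and 55099 FPKM in replicates 1 to 4, a mean of 52572 ± 7424 FPKM. This single gene held 13.3 ± 1.07% of the summed FPKM and 3.79 ± 0.379% of reads; its length in the table is 707 bases. Replicates 3 and 4 were above replicates 1 and 2. Kap lies on chromosome 6 (GRCm38, 133849851 to 133853762, minus strand), and with it chromosome 6 held 16.3% of the summed FPKM.

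Of the 25 highest genes, 7 were encoded by the mitochondrial genome and 18 by the nucleus. Gpx3, the glutathione peroxidase that the proximal tubule releases into plasma, followed Kap among nuclear genes at 9447, 10784, 8275 and 9503 FPKM. The 4 values span a narrow range around a mean of 9502 FPKM. The ferritin heavy chain gene Fth1, which stores iron, was next at 5208 ± 486 FPKM. The cytochrome P450 gene Cyp4b1 had 2910.4 ± 412 FPKM. Acy3, an aminoacylase that acts on mercapturic acids, had 2421 ± 337 FPKM.

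Enzymes of sugar and xenobiotic metabolism were among the next ranks. Miox, which opens the ring of myo-inositol and is made almost wholly in kidney, was at 1826, 1781, 984 and 2112 FPKM. Replicate 3 lay below the other 3 libraries for Miox, and its value was under 60% of theirs. Cyp2e1, an ethanol-inducible P450, was at 1160.2, 1161, 1913 and 1945 FPKM, and replicates 3 and 4 were higher than replicates 1 and 2. Ugt2b38, a glucuronosyltransferase, had 1431 ± 415 FPKM, with 2000.4 FPKM in replicate 4.

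The remaining nuclear genes among the 25 highest ranged from selenium and peptide handling to transport. Gpx1, the cytosolic glutathione peroxidase, had 1580.0 ± 134 FPKM, and Selenop, the selenium carrier of plasma, 1029 ± 160.3 FPKM. Together with Gpx3 and the lipid peroxide reductase gene Gpx4, these selenoprotein genes held 3.15% of the summed FPKM. Eef1a1, the translation elongation factor, was at 1352 ± 147 FPKM. Cndp2, a cytosolic dipeptidase, was at 2094, 716, 1054 and 1114 FPKM, so replicate 1 alone was far above the others. Slc34a1, the sodium phosphate cotransporter of the brush border, was at 1097 ± 46.3 FPKM. Cltrn, which brings amino acid carriers to the brush border, was at 982 ± 116 FPKM. Slc27a2, an acyl-CoA synthetase and fatty acid carrier, was at 969 ± 154 FPKM, and the medium-chain acyl-CoA synthetase gene Acsm2 at 948 ± 132 FPKM. Pck1, which commits oxaloacetate to glucose synthesis, was at 676, 614, 1511 and 1104 FPKM, higher in replicates 3 and 4 than in the other libraries.

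Promoters of 8 top genes are shown as examples with and without the exact letters TATAAA near the start. The windows are the 100 bases before the annotated start, 5′ to 3′ on the gene's strand, from RefSeq on GRCm38.p6, and capitals mark the letters TATAAA. The windows of Kap (chr6:133853668-133853767, minus strand), Acy3 (chr19:3986470-3986569, plus strand), Miox (chr15:89334373-89334472, plus strand), Cyp2e1 (chr7:140763719-140763818, plus strand) and Acsm2 (chr7:119554240-119554339, plus strand) hold these letters. The windows of Eef1a1 (chr9:78481725-78481824, minus strand), Slc27a2 (chr2:126552924-126553023, plus strand) and Atp1b1 (chr1:164458356-164458455, minus strand) do not. The Atp1b1 window does hold the similar letters TATATA, which were not searched for.
Kap: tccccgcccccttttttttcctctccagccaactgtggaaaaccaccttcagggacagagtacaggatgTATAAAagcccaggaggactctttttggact
Acy3: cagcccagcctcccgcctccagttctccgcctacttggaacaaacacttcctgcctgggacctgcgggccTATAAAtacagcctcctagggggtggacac
Miox: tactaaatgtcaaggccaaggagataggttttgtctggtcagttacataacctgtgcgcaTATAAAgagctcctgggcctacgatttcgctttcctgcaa
Cyp2e1: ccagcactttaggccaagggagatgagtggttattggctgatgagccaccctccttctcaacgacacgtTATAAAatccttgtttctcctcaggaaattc
Acsm2: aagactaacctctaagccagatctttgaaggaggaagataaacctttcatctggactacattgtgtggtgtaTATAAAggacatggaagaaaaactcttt
Eef1a1: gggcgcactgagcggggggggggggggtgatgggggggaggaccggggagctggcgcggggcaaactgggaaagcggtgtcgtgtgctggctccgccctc
Slc27a2: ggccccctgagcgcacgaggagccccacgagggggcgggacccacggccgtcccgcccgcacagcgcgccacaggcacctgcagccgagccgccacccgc
Atp1b1: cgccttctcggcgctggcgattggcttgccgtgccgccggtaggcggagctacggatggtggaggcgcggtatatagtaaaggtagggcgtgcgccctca

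Counted from the start, TATAAA began at base -31 in Kap and Cyp2e1, -30 in Acy3, -28 in Acsm2 and -40 in Miox. Of the 40 highest nuclear genes, 32 had a promoter in the RefSeq table. Over the 300-base windows around the start, GC content ran from 38.3 to 60.3% in the 5 with TATAAA near the start, and from 34.0 to 78.0% in the other 27, so the ranges overlap. The 300-base windows of Eef1a1, Slc27a2 and Atp1b1, of which the printed 100 bases are a part, lie in the upper portion of that range, at 65.3 to 71.0%. Among the 100 highest nuclear members, 75 had a promoter in the RefSeq table. Of those 75, 8 (10.7%) carried TATAAA on the gene's strand between 45 and 16 bases before the start. The same holds for 108 of 8151 nuclear members with a promoter (1.32%), for 4.42% of genes below the threshold and for 2.89% of all protein-coding genes. Anywhere in the 300-base window and on either strand, the letters were found in 21.3% of the 75, 7.04% of nuclear members and 18.5% of genes below the threshold. CpG pairs, expressed as observed over expected, had a median of 0.534 in the 75, 0.779 in nuclear members and 0.285 below the threshold. A match to these letters is a description of the sequence and was not tested against any binding measurement.

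The 13 protein genes of the mitochondrial genome, which encode subunits of the respiratory chain and of ATP synthase, were all members and held 15.03 ± 1.37% of the summed FPKM. Levels were unequal among them. The cytochrome c oxidase gene mt-Co1 led at 16856 ± 1455 FPKM, followed by mt-Cytb at 12948 ± 944 FPKM and mt-Nd1 at 10536 ± 486 FPKM. At the lower end, mt-Nd4l had 56.4 ± 11.5 FPKM and mt-Atp8 2.55 ± 1.10 FPKM. Between these lay mt-Co2 (654 ± 328 FPKM), mt-Co3 (449 ± 306 FPKM), mt-Atp6 (265 ± 76.2 FPKM) and mt-Nd3 (94.2 ± 101 FPKM). A nuclear pseudogene identical to mt-Co2 held 32.7% of the reads of the pair, and one identical to mt-Co3 held 22.2%, so the division of reads between them is uncertain. For mt-Nd3, which was at 239, 25.4, 88.8 and 24.0 FPKM, adding the copy's reads brought the coefficient of variation (CV, the SD as a percent of the mean) from 107% to 59.6%. mt-Nd6 lies on the other strand, beside mt-Nd5, and its 4488 ± 881 FPKM is uncertain because the counting is not known to use strand.

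Among marker lists of nephron segments, that of the proximal tubule had the highest sum. Over all its segments, 14 of 14 proximal genes were members and summed to 9099.6, 9327, 9820.2 and 10768 FPKM in replicates 1 to 4. Lists of the other segments summed to 1610.3 FPKM or less in any library. A sum depends on which genes a list holds, so these sums order the lists and not the segments. In RNA of kidney tissue, fewer cells of a type and less RNA per cell cannot be told apart.

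**Figure D2:**
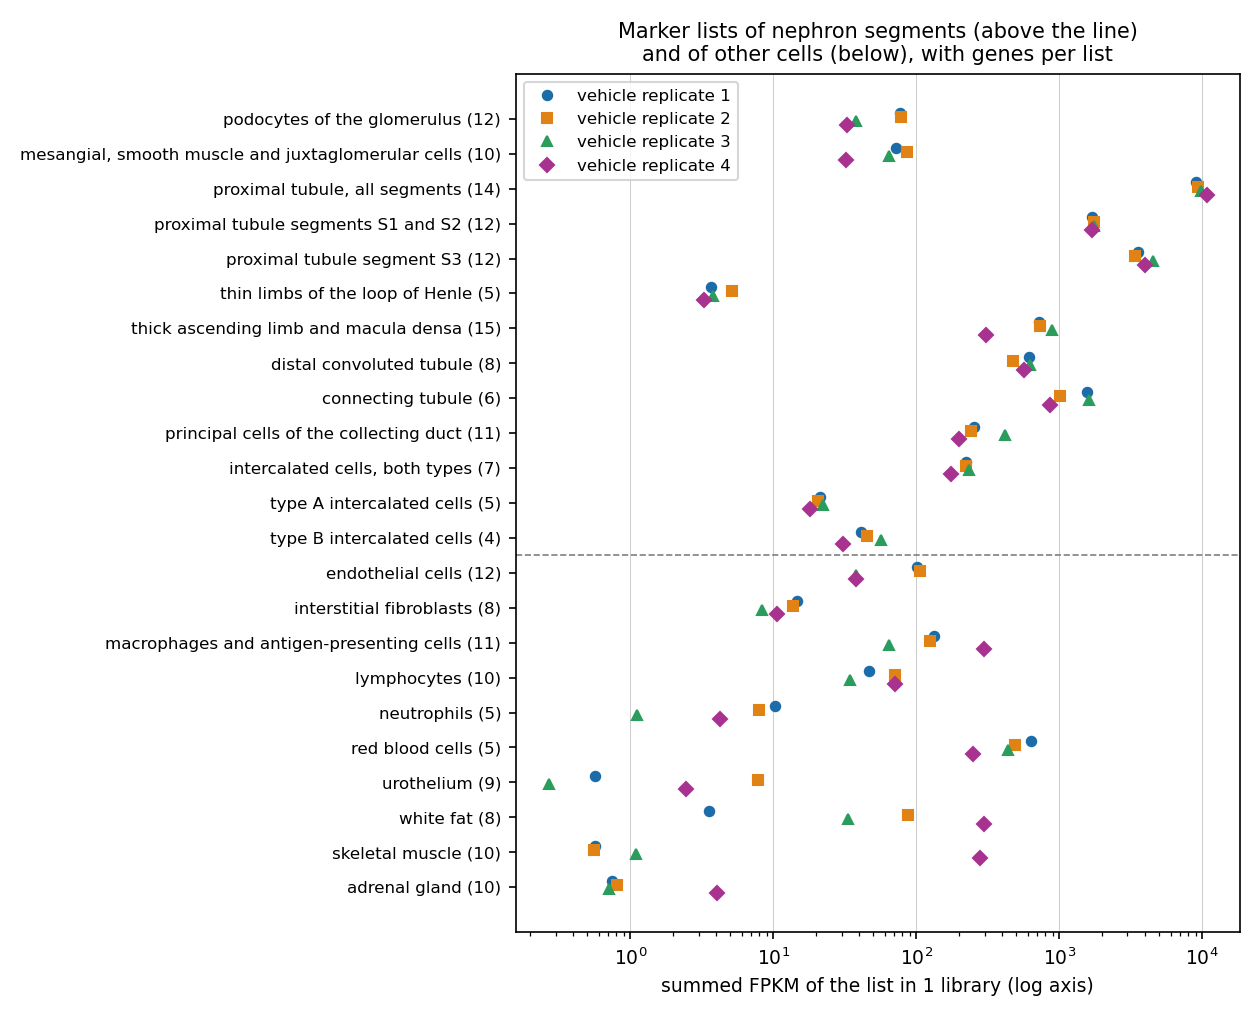
Summed FPKM of each marker list in each of the 4 libraries (points, log axis), with the number of genes per list in brackets and nephron segments above the dashed line. Proximal tubule lists lie within a narrow range in the 4 libraries, the thick ascending limb list is lowest in replicate 4 (309 FPKM), and the muscle list is 277 FPKM in replicate 4 and at most 1.10 FPKM elsewhere.

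In the glomerulus, 9 of 12 podocyte genes were members, and the list summed to 76.9, 78.3, 37.8 and 33.0 FPKM. Replicates 3 and 4 were at less than 50% of replicates 1 and 2. Podxl, the sialomucin that keeps foot processes apart, was at 23.8, 24.98, 8.07 and 6.27 FPKM. Clic5, of the foot process cytoskeleton, did not show this order and was at 10.5, 14.1, 9.38 and 10.5 FPKM. Cdkn1c, the cell cycle inhibitor of mature podocytes, had 5.71 ± 1.94 FPKM. Nephrin, Nphs1, was just above the threshold at 1.33 ± 0.775 FPKM, while Wt1, Magi2 and Plce1 were below it at 0.661, 0.438 and 0.259 FPKM.

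Endothelial genes were likewise lower in replicates 3 and 4, with sums of 101, 107, 38.0 and 37.7 FPKM over 12 genes, all of them members. Plvap, of fenestral diaphragms, was at 29.7, 35.4, 10.7 and 6.67 FPKM, and the coreceptor gene Eng at 27.2, 23.0, 9.10 and 7.80 FPKM. Egfl7, a factor secreted by endothelium, had 4.599 ± 1.06 FPKM, and the tight junction gene Cldn5 had 4.28 ± 1.01 FPKM with its highest value, 5.37 FPKM, in replicate 4. The mesangial, smooth muscle and juxtaglomerular list had 7 of 10 genes as members and sums of 71.7, 85.8, 64.7 and 32.5 FPKM. Ren1, the renin gene, was at 31.0, 38.4, 36.5 and 10.3 FPKM and lowest in replicate 4. The smooth muscle actin gene Acta2 was at 14.97 ± 5.40 FPKM, the pericyte gene Rgs5 at 6.65 ± 2.84 FPKM and the receptor gene Pdgfrb at 4.26 ± 2.77 FPKM. Under the threshold were Itga8 (0.839 FPKM), Akr1b7 (0.801 FPKM) and Tagln (0.0929 FPKM). No histology was available, and how much cortex each library held was not tested.

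Proximal tubule sums differed less between libraries than the glomerular and vascular sums. Miox, Slc34a1 and Pck1, already named, were among the 4 highest of the shared list. Lrp2, which encodes megalin, the receptor for filtered proteins, was at 165 ± 10.03 FPKM, and its partners Amn and Cubn at 142 ± 7.98 and 39.5 ± 3.58 FPKM. Fbp1, the gluconeogenic bisphosphatase, was at 619, 746, 885 and 876 FPKM. The list of the early segments S1 and S2 summed to 1699, 1763, 1745 and 1706 FPKM, and all 12 genes were members. Slc22a6, the organic anion transporter OAT1, led it at 559.9 ± 75.3 FPKM, followed by the phosphate and urate carrier gene Slc17a1 at 328 ± 17.5 FPKM and the dicarboxylate carrier gene Slc13a3 at 219.6 ± 48.3 FPKM. Gatm, the first enzyme of creatine synthesis, was at 241, 323, 97.5 and 98.96 FPKM. Replicates 1 and 2 were thus more than 2 times replicates 3 and 4 for Gatm, although the list's sum was nearly level. With each library scaled to equal summed FPKM, that sum was less level, with an SD of 106 FPKM against 30.5 FPKM unscaled.

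The list of the straight segment S3 summed to 3577, 3381, 4537 and 3962 FPKM, and 11 of 12 genes were members. Acy3 made up 62.6% of the sum. Slc7a13, an aspartate, glutamate and cystine carrier, was at 534, 519.6, 725 and 597 FPKM. Slco1a1, an organic anion transporter, was at 264 ± 42.7 FPKM, and the phospholipid flippase gene Atp11a at 216 ± 14.0 FPKM. Cyp7b1, the oxysterol hydroxylase, was at 22.7, 64.6, 72.7 and 2.39 FPKM, and Slc22a7, the organic anion transporter OAT2, at 118, 108, 191 and 43.5 FPKM. Both were lowest in replicate 4. Slc7a12 was below the threshold at 0.280 FPKM.

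Of 5 thin limb genes 1 was a member. Sptssb, Bst1 and Epha7 were at 0.432, 0.163 and 0.115 FPKM, and the urea transporter gene Slc14a2 had 1 read over the 4 libraries. Genes of osmolyte accumulation, a trait of the medulla, were higher: the taurine carrier gene Slc6a6 was at 33.4 ± 6.18 FPKM, the aldose reductase gene Akr1b3 at 13.8 ± 3.28 FPKM, the inositol carrier gene Slc5a3 at 6.72 ± 2.48 FPKM and Hspa4l, an osmotic stress chaperone, at 5.01 ± 2.44 FPKM. The betaine carrier gene Slc6a12 was at 0.0289 FPKM, with 6 reads. None of the 4 libraries had more than 0.1 FPKM of it.

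The thick ascending limb list, with 13 of 15 genes as members, summed to 725, 731, 883 and 309 FPKM. Umod, which encodes uromodulin, was at 367, 398, 498 and 117 FPKM. Slc12a1, the sodium potassium chloride cotransporter that loop diuretics block, was at 52.2, 64.5, 65.3 and 16.1 FPKM. Replicate 4 was lowest for 11 of the 13 members. The ratio of Umod to Slc12a1, chosen after these values were seen, was 7.03, 6.17, 7.63 and 7.24, so these genes kept nearly the same proportion while their levels differed several-fold. Egf, the precursor of epidermal growth factor, was at 76.6, 67.7, 104 and 43.0 FPKM, and Cldn10, a paracellular cation pore, at 84.5, 79.7, 62.5 and 57.5 FPKM. Kcnj1, the potassium channel ROMK, was at 56.5, 45.5, 55.5 and 22.8 FPKM. The macula densa gene Nos1 was at 0.0741 FPKM and Enox1 at 0.222 FPKM, both below the threshold.

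Distal convoluted tubule genes were more even, with sums of 615, 474, 625 and 566 FPKM over 8 genes, all members. Fxyd2, the gamma subunit of the sodium pump, led at 346 ± 43.3 FPKM and held 60.7% of the mean sum, so the sum mostly follows this gene. The median CV (SD as a percent of the mean) of the members was 15.1%, against 37.1% for the thick ascending limb list. Pvalb, the calcium-binding parvalbumin of the early distal tubule, was at 76.7, 42.1, 80.3 and 109 FPKM. Replicate 4 was lowest for 5 of the 8 members and highest for Pvalb only. That library also held the skeletal muscle transcripts, and a part of muscle in its Pvalb value was not tested. Tmem52b had 58.7 ± 9.35 FPKM. Slc12a3, the thiazide-sensitive sodium chloride cotransporter, was at 53.3, 41.3, 45.5 and 38.7 FPKM. The ratio of Slc12a1 to Slc12a3 was 0.979, 1.56, 1.43 and 0.417, the last being replicate 4.

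The connecting tubule list had 5 of 6 genes as members and sums of 1563, 1009, 1610.3 and 862 FPKM. Klk1, the tissue kallikrein, was at 823, 458, 817 and 353 FPKM, and S100g, the small calcium-binding calbindin, at 635, 487, 713 and 474 FPKM. Replicates 1 and 3 were above replicates 2 and 4 for both. Calb1, the large calbindin, was at 90.7, 51.4, 68.2 and 27.6 FPKM in that same pattern. Slc8a1, the sodium calcium exchanger, was at 6.93 ± 2.72 FPKM, and the channel gene Trpv6 below the threshold at 0.260 FPKM.

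Principal cells of the collecting duct were represented by 9 of 11 genes, with sums of 253, 242, 418 and 198 FPKM. Aqp2, the water channel that vasopressin moves to the apical membrane, was at 73.0, 70.7, 146 and 46.9 FPKM. Aqp3, on the basolateral side, was at 37.6, 40.9, 80.0 and 52.4 FPKM. Replicate 3 was the highest library for both. Hsd11b2, which shields the mineralocorticoid receptor from corticosterone, was at 86.1 ± 25.6 FPKM, and Scnn1a, the alpha subunit of the epithelial sodium channel, at 22.2 ± 7.41 FPKM. Avpr2, the vasopressin receptor gene itself, had 3 reads over the 4 libraries, and Elf5 was at 0.0559 FPKM. Avpr2 overlaps another gene in the annotation, and whether that affected its count was not tested.

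Intercalated cells secrete acid or base. Genes shared by both types summed to 224, 224, 233 and 175 FPKM, with 7 of 7 as members and replicate 4 lowest. Car2, the cytosolic carbonic anhydrase, was at 90.9 ± 17.9 FPKM. The proton pump subunit genes Atp6v0a4 and Atp6v1g3 were at 54.3 ± 7.01 and 15.1 ± 2.82 FPKM, and the ammonia channel gene Rhcg at 23.9 ± 6.62 FPKM. The type A list, with 4 of 5 genes as members, summed to 18.1 to 22.2 FPKM. Within it Aqp6 was at 9.79 ± 1.77 FPKM, the anion exchanger gene Slc4a1 at 3.39 ± 0.711 FPKM and Kit at 1.65 ± 0.235 FPKM, with Slc26a7 below the threshold at 0.315 FPKM. The receptor gene Oxgr1 was also placed on this list, at 5.36 ± 1.19 FPKM. Whether its transcripts come from type A cells was not tested, so the list's sum is not specific to that type. The type B list, with 4 of 4, summed to 41.3, 45.5, 56.5 and 30.7 FPKM. Pendrin, Slc26a4, was at 24.3 ± 7.03 FPKM, Slc4a9 at 13.2 ± 2.39 FPKM, the receptor gene Insrr at 3.75 ± 1.01 FPKM and the homeobox gene Hmx2 at 2.28 ± 0.623 FPKM. Of the 13 segment lists, 9 had their lowest sum in replicate 4, 2 in replicate 1, 2 in replicate 2 and 0 in replicate 3.

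Lists of blood, immune and interstitial cells had lower sums than the shared proximal tubule list, though not than every segment list. Globin and heme synthesis genes of red cells summed to 629, 488, 439.6 and 247 FPKM, led by Hba-a1 at 271 ± 90.1 FPKM and Hbb-bs at 149.8 ± 64.8 FPKM. Hbb-bt had 28.0 ± 11.8 FPKM and Alas2 2.08 ± 0.888 FPKM. Hba-a2, whose transcript is 99.8% identical to that of Hba-a1, was listed at 0.609 FPKM, so the level of either alpha globin gene alone is uncertain. Of 8 interstitial fibroblast genes, 4 were members, namely Dcn (3.86 ± 0.819 FPKM), Col1a2 (1.88 ± 0.831 FPKM), Col3a1 (1.87 ± 1.25 FPKM) and Col1a1 (1.85 ± 0.890 FPKM). Pdgfra, Lum, Postn and Fbln1 were below the threshold at 0.941, 0.604, 0.424 and 0.406 FPKM.

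Macrophage and antigen presentation genes summed to 133, 125, 64.0 and 297 FPKM, with 8 of 11 as members. Cd74, the invariant chain of class II molecules, led at 78.8, 72.2, 33.6 and 155 FPKM. Lyz2, a lysozyme, was at 17.8, 17.4, 4.67 and 88.4 FPKM and H2-Aa at 5.97, 10.4, 3.00011 and 27.0 FPKM, in each case highest in replicate 4 and lowest in replicate 3. Csf1r, the receptor that macrophages need, differed from this order at 14.1, 9.05, 12.6 and 9.57 FPKM. C1qb (4.62, 4.89, 3.68 and 3.97 FPKM) and C1qc (3.31, 2.35, 1.47 and 1.91 FPKM) were not highest in replicate 4 either. Of the 8 members, 5 were highest there. Ptprc, Mrc1 and Adgre1 were below the threshold at 0.979, 0.475 and 0.398 FPKM. B cell and T cell genes were highest in replicate 4. Cd79a was at 0.2998, 0.576, 0.133 and 17.1 FPKM, Cd79b at 0.153, 0.508, 0.316 and 14.2 FPKM, and the lymphotoxin gene Ltb at 0.936, 0.258, 0.341 and 12.9 FPKM. Jchain, which joins secreted antibodies, went the other way, at 43.9, 67.9, 33.6 and 12.6 FPKM. Of the lymphocyte list, 5 of 10 genes were members, and Ms4a1, Nkg7, Cd3d, Cd3g and Cd3e were below the threshold at 0.865, 0.805, 0.4995, 0.462 and 0.264 FPKM. Each of these last 5 was also highest in replicate 4, the T cell gene Cd3d at 0.0902, 0.123, 0.0712 and 1.71 FPKM. Neutrophil genes were low, with S100a9 at 3.46 ± 2.32 FPKM, S100a8 at 1.66 ± 1.11 FPKM, Retnlg at 0.726 FPKM and 1 read each for Camp and Ly6g.

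Markers of neighbouring tissues were read for the same libraries. The white fat list had 7 of 8 genes as members, and all 7 were lowest in replicate 1 and highest in replicate 4. Its leading gene Cfd, the adipocyte protease adipsin, was at 0.178, 51.9, 22.6 and 202 FPKM. Fabp4, a fatty acid binding protein, was at 2.85, 17.3, 3.84 and 36.5 FPKM, and Cidec, of the lipid droplet, at 0.118, 3.59, 2.02 and 20.3 FPKM. Leptin, Lep, was at 0.423 FPKM. Of 5 brown fat genes 3 were members. Ucp1, the uncoupling protein of brown fat, was at 0, 7.18, 0 and 1.41 FPKM and Cidea at 0, 5.82, 0.222 and 9.15 FPKM, so both were found mainly in replicates 2 and 4. Cox7a1 was at 5.54 to 8.27 FPKM in each library, Dio2 at 0.0388 FPKM and Elovl3 at 0 in all 4 libraries. The muscle list had 8 of 10 genes as members, all 8 highest in replicate 4. There Myh4, a fast myosin heavy chain, was at 36.3 FPKM, Tnnt3 at 33.6 FPKM and Mylpf at 29.0 FPKM. Acta1 and Myh4 were at 0 in the other 3 libraries, and Tnnt3 and Mylpf were below 1 FPKM in them. Myh2 had 1 read and Tnnc2 was at 0 in all 4 libraries. What these transcripts contribute to other values in replicates 2 and 4 was not tested.

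Markers of several other tissues were at or near 0. No urothelial gene of 9 was a member, and their sum was 0.565, 7.81, 0.268 and 2.46 FPKM. None of 10 adrenal genes was a member either. The catecholamine enzyme genes Th and Dbh were at 1.36 and 0.856 FPKM in replicate 4 and at 0 in the other libraries, and Cyp11a1, Cyp11b2 and Nr5a1 were at 0 in all 4. Of the exocrine pancreas list, Cela1 was at 27.9 ± 3.48 FPKM in all 4 libraries, while Cpa1, Prss2, Pnlip, Cel and Amy2a5 were at 0 and Ctrb1 had 1 read. Hepatocyte genes were low, led by Alb at 2.93 ± 1.06 FPKM and Apoc3 at 2.11 ± 1.06 FPKM, with Cyp2c29 at 0. Genes of dividing cells summed to 1.15 to 2.60 FPKM, and 0 of 7 were members, Ccna2 being highest at 0.413 FPKM and Mki67 next at 0.385 FPKM. Of 8 tubule injury genes, 4 were members. Spp1, osteopontin, was at 205, 143, 115 and 59.6 FPKM and Clu, clusterin, at 46.1 ± 8.66 FPKM, whereas Havcr1, which encodes KIM-1, was at 1.68, 3.12, 1.68 and 1.40 FPKM and Lcn2 at 0.221 FPKM.

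Solute carriers were counted by symbol, as Slco genes and as Slc genes with the letter a after the family number. Slc genes with another letter there were left out. Symbols that add letters to a carrier's name, such as Slc4a1ap and Slc7a6os, were included. Of 356 genes so counted, 214 (60.1%) were members, against 46.6% of all protein-coding genes. They held 3.06 ± 0.108% of the summed FPKM. By summed level the Slc22 family of organic ion transporters led at 2855 ± 266 FPKM, with 17 of 25 genes as members. The Slc25 mitochondrial carriers were next at 1888 ± 263 FPKM, with 37 of 47 as members, led by the ADP/ATP exchanger gene Slc25a5 at 551 ± 101 FPKM and Slc25a39 at 304 ± 24.5 FPKM. The phosphate family Slc34 summed to 1105 ± 41.8 FPKM, of which Slc34a1 held nearly all. Slc34a3, its relative, was at 12.02, 13.03, 4.11 and 3.86 FPKM. Replicates 3 and 4 were thus at about a 3-fold lower level of Slc34a3, while Slc34a1 stayed between 1034 and 1133 FPKM.

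**Figure D3:**
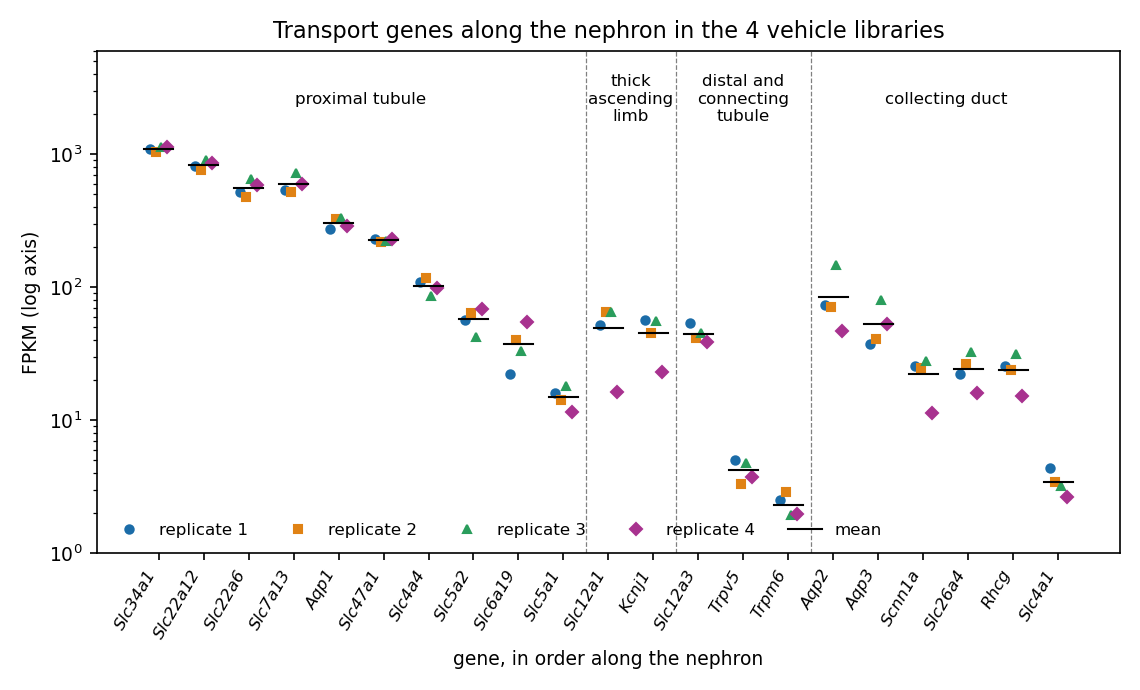
FPKM of 21 transport genes in each of the 4 libraries (points) with the mean (bar), on a log axis, ordered along the nephron and divided by dashed lines. Slc34a1 is near 1097 FPKM in all 4 libraries, whereas Slc12a1, Kcnj1, Aqp2 and Scnn1a lie lowest in replicate 4.

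Organic anion and urate carriers summed to 2906 ± 321 FPKM, with 15 of 17 genes as members. Slc22a12, the urate exchanger URAT1, was at 810.5, 764, 911 and 851 FPKM. Slc22a6 was at 523, 478, 649.9 and 589 FPKM, and Slc17a1 at 324, 305, 339.7 and 343 FPKM. All 3 encode carriers of the proximal tubule. Slco1a1 was at 260.4, 205, 288 and 301 FPKM and its neighbour Slco1a6 at 122, 228, 394 and 264 FPKM. Slco1a6 was lowest in replicate 1 and Slco1a1 in replicate 2. Slco4c1 and Slc22a29 were below the threshold at 0.679 and 0.418 FPKM. Organic cation carriers had 5 of 9 genes as members and summed to 771 ± 52.0 FPKM. The proton antiporter gene Slc47a1, MATE1, was at 226 ± 5.39 FPKM, Slc22a2, OCT2, at 167 ± 11.6 FPKM and the carnitine carrier gene Slc22a5 at 93.0 ± 19.6 FPKM. Abcb1a and Abcb1b, the efflux pump genes, were at 0.582 and 0.573 FPKM, Slc22a3 at 0.318 FPKM and Slc47a2 at 0.0377 FPKM.

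Sodium enters tubule cells from the lumen and leaves through the basolateral pump, for which 8 of 10 listed genes were members. Atp1b1, the beta subunit gene of that pump, was at 529, 530.3, 813 and 663 FPKM, highest in replicate 3. Atp1b3 was at 32.4 ± 2.44 FPKM, and Atp1a4 was below the threshold at 0.320 FPKM. All 10 apical entry genes were members, and Slc34a1 held 85.4% of their sum of 1284 ± 46.9 FPKM. Slc9a3, the sodium proton exchanger of the brush border, was at 19.5, 22.9, 25.4 and 29.8 FPKM. Slc9a3r1, which carries a carrier's symbol but encodes the scaffold NHERF1, was at 229 ± 40.2 FPKM and led the Slc9 genes, which summed to 304 ± 45.8 FPKM.

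Glucose and fructose carriers summed to 211 ± 11.8 FPKM, and 8 of 8 were members. Slc5a10, a sodium-dependent mannose and fructose carrier, was at 77.6, 69.6, 85.4 and 61.9 FPKM. Slc5a2, the early segments' glucose carrier SGLT2, was at 56.2, 63.6, 42.2 and 68.1 FPKM, and Slc5a1, the late segment's SGLT1, at 14.9 ± 2.87 FPKM. Their ratio was 3.49, 4.51, 2.32 and 5.96, so SGLT2 exceeded SGLT1 in each library. The fructose carrier gene Slc2a5 was at 13.2, 31.8, 41.8 and 26.2 FPKM, and the basolateral glucose carrier gene Slc2a2 at 22.4 ± 3.03 FPKM. The lactate and short-chain carrier gene Slc5a8 was at 64.5 ± 11.2 FPKM.

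Amino acid carriers summed to 1122, 1140.2, 1349 and 1154 FPKM, with 16 of 18 genes as members, and Slc7a13 held 49.8% of the mean sum. Slc3a1, the heavy chain of cystine transport, was at 165, 190.1, 193 and 189 FPKM. Slc6a18, a neutral amino acid carrier of late segments, was at 111, 75.9, 102 and 52.7 FPKM, and Slc7a7, which with 4F2hc exports cationic amino acids, at 40.1, 51.4, 40.6 and 40.7 FPKM. Slc36a2 and Slc7a12 were below the threshold at 0.926 and 0.280 FPKM. Monocarboxylate carriers of the Slc16 family summed to 336 ± 19.9 FPKM, with the creatine carrier gene Slc16a12 at 58.1 ± 3.32 FPKM.

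Acid and base transport, with 13 of 15 genes as members, was led by the membrane carbonic anhydrase gene Car4 at 162 ± 9.82 FPKM, the bicarbonate cotransporter gene Slc4a4 at 103 ± 13.5 FPKM, Car2 and the sulfate carrier gene Slc26a1 at 68.2 ± 3.53 FPKM. Slc4a7 was below the threshold at 0.533 FPKM. Of 11 aquaporins 7 were members, and Aqp1, of the proximal tubule and thin descending limb, held 65.5% of their sum at 303 ± 28.3 FPKM. Aqp8, Aqp9 and Aqp5 were at 0.514, 0.0269 and 0.0160 FPKM, and Aqp12 was at 0 in all 4 libraries. Of 20 listed claudins 13 were members. Cldn2, the cation and water pore of the proximal tubule, was at 197, 216, 190.1 and 181 FPKM, followed by Cldn10, Cldn12 at 21.0 ± 0.849 FPKM and Cldn8 at 14.3 ± 4.47 FPKM. Under the threshold were Cldn9, Cldn18, Cldn23, Cldn11, Cldn14, Cldn17 and Cldn22, between 0 and 0.579 FPKM.

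Potassium channels had 8 of 10 listed genes as members. Kcnj16 and Kcnj15, both inward rectifiers, were at 301 ± 29.8 and 214 ± 19.4 FPKM, ahead of Kcnk5 at 49.2 ± 11.4 FPKM and Kcnj1. Kcnt1 and Kcnma1 were below the threshold at 0.262 and 0.0849 FPKM. By symbol, 11 of 94 Kcn genes (11.7%) were members. Calcium and magnesium transport, with 10 of 11 genes as members, was led by the binding proteins S100g, Pvalb and Calb1 and the channel kinase gene Trpm7 at 11.9 ± 1.42 FPKM. The vacuolar proton pump had 20 of 23 subunit genes as members and ABC transporters 24 of 50. Olfactory receptors had 0 of 1135 and vomeronasal receptors 0 of 331.

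Brush border peptidases, which finish the digestion of filtered peptides, summed to 1410.0 ± 143 FPKM, and 10 of 10 were members. Ggt1, which cleaves glutathione, was at 565, 529, 642 and 608 FPKM, and Mep1a, a meprin subunit, at 477, 457, 619.9 and 479 FPKM. Ace, which makes angiotensin II, was at 71.0, 72.4, 85.9 and 73.1 FPKM and the aminopeptidase gene Anpep at 65.2 ± 9.80 FPKM. For Mep1a and Ace replicate 3 was above the other 3 libraries, which lay close together.

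Metabolic genes were abundant as groups. All 5 gluconeogenesis genes were members and summed to 3793, 4122, 5092 and 5069 FPKM, with G6pc, the last step to free glucose, at 254, 353, 234 and 250.5 FPKM. Fatty acid oxidation genes, 14 of 14 as members, summed to 1692, 1679, 2155 and 1843 FPKM. Among the 4 highest were the peroxisomal gene Ehhadh (317 ± 30.3 FPKM) and the mitochondrial dehydrogenase genes Acadm (293 ± 44.4 FPKM) and Acadl (165 ± 16.0 FPKM). Citric acid cycle genes, 14 of 14 as members, summed to 1556 ± 125 FPKM, with Sdha at 179 ± 16.1 FPKM, Sdhb at 171 ± 19.8 FPKM and Idh2 at 134, 139, 184 and 139 FPKM. Antioxidant genes, 12 of 12 as members, summed to 13551 ± 725 FPKM. Gpx3 held 70.1% of that sum, and Prdx5 and Cat, peroxide-removing enzymes, had 638 ± 109.7 and 457 ± 22.1 FPKM.

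Glycolysis genes summed to 1639 ± 62.0 FPKM, with 12 of 13 as members. Ldhb, the lactate dehydrogenase subunit of oxidative tissues, was at 708, 682, 711 and 737 FPKM and Ldha at 244, 248, 265 and 251 FPKM. Their ratio was 2.69 to 2.93 in the 4 libraries. Aldoa was at 293 ± 13.005 FPKM and Pgk1 at 232 ± 25.8 FPKM, and hexokinase 2, Hk2, was below the threshold at 0.291 FPKM. Gapdh, often used as an internal reference, was listed at 2.42, 2.82, 1.99 and 19.0 FPKM, far below its neighbours in the pathway. It has 3 near-identical pseudogene copies, which held 2 to 6 reads in a library, far fewer than the gene itself. Among 14 genes often used as internal references, all were members. The 4 highest were B2m at 365 ± 9.78 FPKM, Rplp0 at 303 ± 27.7 FPKM, Pgk1 and Actb at 193 ± 25.2 FPKM.

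Drug and hormone metabolism showed a concentrated pattern as well. Of 99 cytochrome P450 genes 29 were members, and they summed to 6619.6 ± 1101 FPKM, led by Cyp4b1 and Cyp2e1. The sum was 5522, 5842, 7743 and 7373 FPKM, higher in replicates 3 and 4. Of 22 UDP-glucuronosyltransferase genes 9 were members, with Ugt2b38 and Ugt3a2 (573 ± 42.8 FPKM) leading. Nuclear genes of the respiratory chain and ATP synthase had 90 of 94 as members (95.7%) and proteasome subunits 38 of 40, and their median CVs were 13.2 and 11.2%.

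Transcription factors were many and low. Of 1451 annotated, 648 (44.7%) were members, a share near the 46.6% of all protein-coding genes, and they held 1.30% of the summed FPKM. Above 20 FPKM were 38. Hnf4a, the nuclear receptor of proximal tubule and liver, was at 179, 183, 189 and 200.1 FPKM, an even level. Nr1h4, the bile acid receptor FXR, was at 65.4, 61.5, 115 and 143 FPKM. Replicates 3 and 4 were thus higher than replicates 1 and 2 for Nr1h4. Esrra, which drives mitochondrial genes, was at 58.1 ± 10.9 FPKM. Of 30 factors listed for kidney epithelium 26 were members, and Wt1, Osr1, Foxd1 and Six2 were not. Six2, a factor of nephron progenitors, was at 0 in all 4 libraries. By structural family, 41 of 229 homeobox genes (17.9%) and 32 of 48 bZIP genes (66.7%) were members.

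Circadian and immediate early genes varied with the library. Clock genes, 14 of 15 as members, summed to 87.7, 108, 176 and 179.6 FPKM. Tef was at 21.9, 26.2, 49.4 and 57.3 FPKM, Hlf at 21.1, 20.8, 30.4 and 26.3 FPKM, and Nr1d2 at 6.18, 14.5, 25.1 and 25.6 FPKM, each lower in replicates 1 and 2. Npas2, named after its values were seen, had the opposite order, at 11.1, 6.19, 0.229 and 0.204 FPKM. At which hours the kidneys were taken is not stated in the labels, and a part of sampling time was not tested. Immediate early genes summed to 97.3 to 112 FPKM, with 10 of 12 as members, but single genes differed more than the sum: Ier3 was at 25.4, 14.8, 50.6 and 13.6 FPKM and Dusp1 at 11.8, 19.5, 11.7 and 27.7 FPKM. Ier2 and Jun were at 16.2 ± 1.70 and 11.8 ± 2.07 FPKM, and Atf3 and Fosb below the threshold at 0.388 and 0.0248 FPKM.

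Spread between the 4 libraries was measured for each member as its CV. The median CV was 14.1%, with quartiles of 9.12 and 22.5%, while the median CV that read counting alone would give was 4.42%. For 472 members the CV was below that counting value. At the low end, members from 1 to 10 FPKM had a median of 300.2 reads per library, a counting CV of 5.78% and a CV of 15.7%. From 10 to 100 FPKM the corresponding values were 1352 reads, 2.73 and 11.9%, and from 100 to 1000 FPKM 7516 reads, 1.16 and 12.7%. The median CV was thus nearly level above 10 FPKM although the counting part shrank. A CV over 50% was found in 514 members (4.999%), 423 of them from 1 to 10 FPKM. Recomputed over the same 10283 members from 3 libraries, the count was 376 without replicate 4 and 572, 600 or 505 without replicate 1, 2 or 3.

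**Figure D4:**
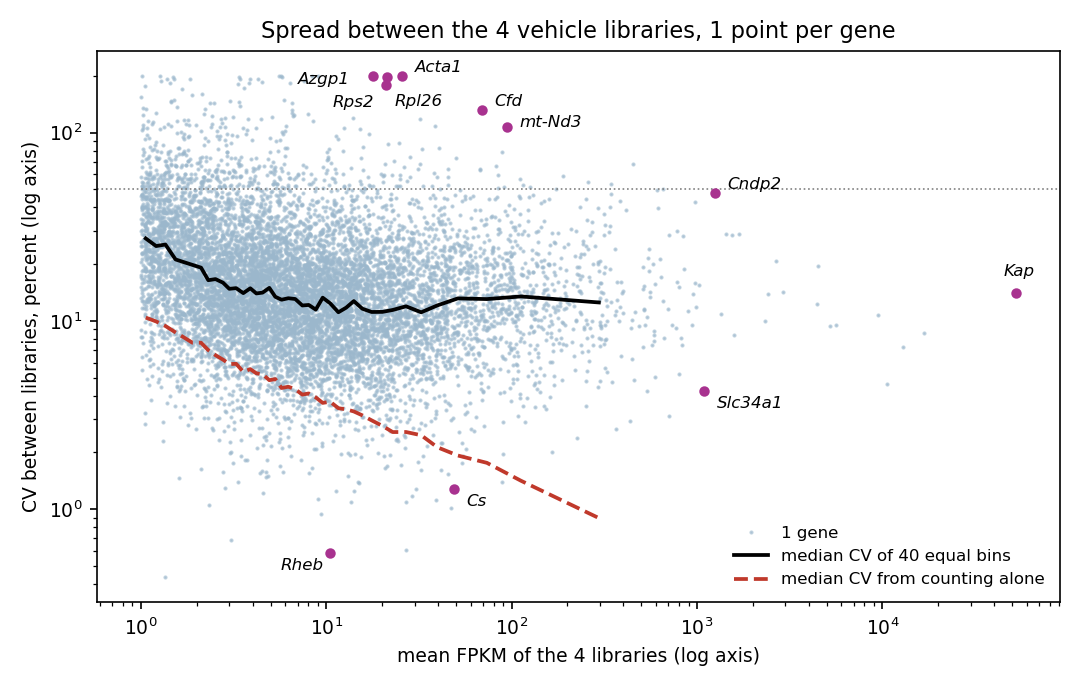
CV between the 4 libraries against mean FPKM for each of the 10283 members (points, log axes), with the median CV of 40 equal bins (solid line), the median CV from counting alone (dashed line) and the 50% mark (dotted line). Above 10 FPKM the solid line stays near 12% while the dashed line falls. Acta1, Azgp1, Rps2 and Rpl26 lie near 200%, and Rheb at 0.585%.

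Among the 3867 members with a mean of at least 10 FPKM, 91 had a CV over 50%, 323 under 5% and 34 under 2%. The 15 highest CVs fell into a few kinds. Acta1, of skeletal muscle, and Azgp1, a secreted glycoprotein of fat and other tissues, were found in replicate 4 alone, at 103 and 71.8 FPKM, and at 0 elsewhere. Cfd and Fabp4 were on the fat list, and Car3, a carbonic anhydrase abundant in fat and muscle, was at 0.572, 51.2, 10.6 and 92.2 FPKM. The class II gene H2-Eb1 was at 1.25, 18.4, 0.546 and 35.3 FPKM, beside H2-Aa and Lyz2. Srd5a2, a steroid 5-alpha-reductase, was at 8.20, 3.03, 6.64 and 31.7 FPKM, and Eddm3b, a secreted ribonuclease-like protein, at 5.10, 5.59, 7.002 and 27.4 FPKM, both highest in replicate 4. Dbp, a clock output gene, was at 0.876, 4.34, 31.6 and 30.7 FPKM. Id1, an inhibitor of bHLH factors, was at 13.6, 9.98, 57.2 and 18.5 FPKM and highest in replicate 3. The other 3 of the 15 were mt-Nd3, Rps2 and Rpl26.

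The lowest CVs at this level were 0.585% for Rheb, a small GTPase that activates mTORC1, at 10.5, 10.6, 10.6 and 10.5 FPKM, and 0.604% for Emc3, a subunit of the membrane protein insertase of the endoplasmic reticulum, at 26.6 to 27.0 FPKM. Their counting CVs were 2.68 and 2.54%, so such agreement is closer than counting alone would give on average. Others of the 15 lowest were Clptm1l, the translation termination factor gene Gspt1, Gid8, Mtpn, the RNA-binding protein gene Nono, Asb8, Rbck1, Cs, which encodes citrate synthase, the lysosomal thioesterase gene Ppt1, Spin1, the proton pump subunit gene Atp6v1b2, the elongation factor gene Tcea1 and Flii, with CVs up to 1.51%. Slc34a1 had a CV of 4.22% and Ldhb of 3.13%. These genes were picked as the lowest of 3867, so their CVs are a description only.

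Reads of near-identical copies were set beside those of the gene. A copy of at least 97% identity over 50% or more of the shorter transcript was found for 893 members. Rps2, a ribosomal protein gene of the small subunit, had 23, 8, 10 and 2662 reads, while its 15 processed pseudogenes had 5118, 4147, 4850 and 2915. The CV was 196% for the gene and 14.1% for gene and copies summed. Rpl26, of the large subunit, had 42, 80, 1724 and 56 reads and its 2 copies 4012, 3314, 1920 and 4150, with CVs of 178 and 10.5%. Ndufa12, a subunit of respiratory complex I chosen after its values were seen, had 758, 177, 266 and 147 reads and its copy 819, 1024, 1237 and 1509, with CVs of 79.3 and 15.9%. Ahcy, the hydrolase of S-adenosylhomocysteine and likewise chosen afterwards, had CVs of 79.1 and 35.1%. These 4 families were picked for a high CV of the gene. Over all 679 members whose copies had reads, the CV of the sum was below that of the gene in 420 and not below it in 259, with medians of 14.6% for the gene and 13.7% for the sum. Among the 40 of them with a CV over 50%, it was below in 33. For Gapdh the CVs were 127 and 126%, and for Hmgb1, a chromatin protein gene with 20 copies, 9.98 and 12.9%. Where copies hold a sizeable share of reads, the listed level of the gene alone is uncertain.

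**Figure D5:**
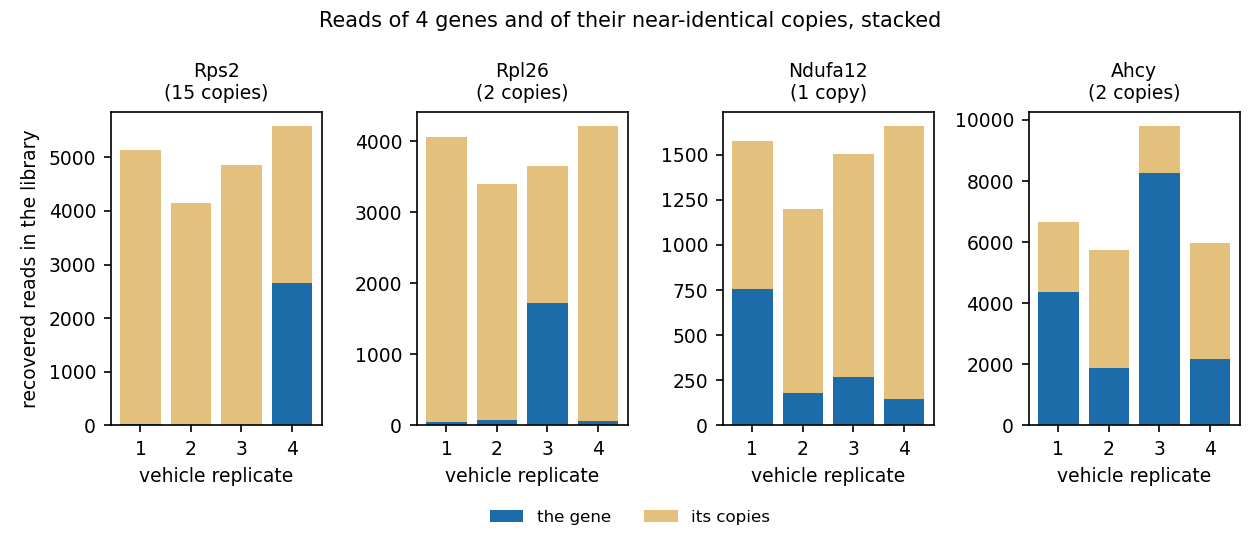
Recovered reads of Rps2, Rpl26, Ndufa12 and Ahcy (lower part of each bar) and of their near-identical copies (upper part) in vehicle replicates 1 to 4, each panel with its own axis from 0. The gene's part of Rps2 is 2662 reads in replicate 4 and at most 23 elsewhere, while the whole bars run from 4155 to 5577 reads.

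Each member has a library farthest from the mean of the other 3. By that measure replicate 4 was farthest for 2929 members (28.5%), replicate 3 for 2839, replicate 2 for 2484 and replicate 1 for 2031. Among the 514 members with a CV over 50%, replicate 4 was farthest for 240, and replicates 1, 2 and 3 for 92, 91 and 91. A gene that passes the threshold only through a high value in 1 library has a high CV by that choice, so these counts describe the members and no more. Of the 230 such genes with at least 1 FPKM in every library, replicate 4 was farthest for 92, and replicates 1, 2 and 3 for 36, 47 and 55.

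By position, the share of protein-coding genes that were members ran from 36.9% on chromosome 7 to 55.7% on chromosome 8 among autosomes. It was 31.1% on the X chromosome and 2.73% (5 of 183) on the Y chromosome. Of the 200 highest nuclear members, 30 lay within 200 kb of another, in 14 groups. Umod, Acsm2 and Acsm3 form a group on chromosome 7 (119462711 to 119787513), where Acsm2 had 948 FPKM, Umod 345 FPKM and Acsm3, another acyl-CoA synthetase, 243 FPKM. Slco1a1 and Slco1a6 lie together on chromosome 6 (141907282 to 142208521), and Gpx4, Atp5d and Rps15 on chromosome 10 (80047166 to 80294114). In the annotation, the spans of 5419 members (52.7%) overlap that of another gene, among them Slc34a1, Umod and Slc12a1. A span runs from the start to the end of a gene with introns included, and either strand was counted. Whether exons overlap, and whether reads of a partner entered these levels, was not tested.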

How the data were processed

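Polyadenylated kidney RNA was sequenced, with fragments of selected length per the labels' protocols. The values analysed are FPKM per gene in the table deposited by the authors, with gene length, biotype and coordinates. The submitters' processing notes name DESeq2 1.20.0 and the build GRCm38 without a role. The sources used here do not give the aligner, the counter or the treatment of strand and of reads with several matches. Columns lettered C were taken as vehicle, the only group besides BPA, with their number as the replicate. Multiplying deposited FPKM by gene length gave, library by library, evenly spaced values: 100% of those up to 20 steps lay within 0.01 reads of a whole number, and whole reads were recovered from them. The library size behind the FPKM was 0.971 to 1.06 times the recovered total.

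Levels are means ± SD of FPKM over 4 libraries (n = 4), and shares are of the FPKM summed over all genes. The CV is SD over mean, and the counting CV is that of a Poisson count at the recovered reads. No count model and no test between groups was used, and Dixon's critical value served to mark single libraries. Near-identical copies came from blastn 2.17.0 (e-value 1e-20, at least 97% identity over at least 100 bases and 50% of the shorter transcript) on the longest GENCODE M21 transcripts. RefSeq promoters (GRCm38.p6) were searched for TATAAA on both strands, from 250 bases before to 50 after the start. The scripts ran on Python 3.11.15 with pandas 2.3.3 and numpy 2.4.6, and figures were drawn with matplotlib 3.10.9. The steps were tested on simulated data.

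Named genes are the 25 highest, the 4 highest of each list and, in lists of at most 20, those below the threshold, the 15 highest and 15 lowest CVs from 10 FPKM, 3 genes on each side of the threshold and the 2 highest of each of the 10 leading Slc families. Other list members are named where they define a cell type, after their values were seen, and genes with predicted names (235 members) are counted only. The members and lists were chosen with earlier results of these data known. A few genes meeting these criteria have been left out of the text.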

Additional observations from a re-analysis of the deposited data

Results flagged for a closer look

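In 271 results over 4 libraries (205 named genes, 51 list sums and 15 library measures), 27 had 1 library set apart from the other 3 by a gap, relative to the range of the 4, above Dixon's 95% critical value, 23 high and 4 low. Chance marks about 1 in 20 (5%) of groups picked without regard to their values. The named genes include those with the highest CVs and genes that are members only through 1 high library, for which a mark follows from the choice, so the number of marks is not read against that rate. The library set apart was replicate 4 in 14 cases, replicate 3 in 7, replicate 2 in 4 and replicate 1 in 2.

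In replicate 4 the muscle genes Acta1 (103 FPKM), Myh4 (36.3 FPKM), Tnnt3 (33.6 FPKM) and Mylpf (29.0 FPKM) were high, and the skeletal muscle sum was 277 FPKM. The same held for Azgp1 (71.8 FPKM), Rps2 (83.8 FPKM), Lyz2 (88.4 FPKM), Cd79a (17.1 FPKM), Cd79b (14.2 FPKM), Ltb (12.9 FPKM) and Eddm3b (27.4 FPKM). The adrenal gland sum was high there at 4.06 FPKM, against 0.715 to 0.808 FPKM, and the sum over genes of both intercalated types low at 175 FPKM, against 224 to 233 FPKM.

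In replicate 3 Mep1a (619.9 FPKM), Idh2 (184 FPKM), Ace (85.9 FPKM), Rpl26 (77.2 FPKM) and the amino acid carriers' sum (1349 FPKM) were high. FPKM summed over all genes was also highest in replicate 3, and these marks were not recomputed with equal sums. Its members held 93.7% of the summed FPKM and 19693 genes were above 0, both the lowest of the 4.

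In replicate 2 Slc7a7 (51.4 FPKM), Slc6a6 (42.7 FPKM), Havcr1 (3.12 FPKM) and the mitochondrially encoded share of reads (8.20%) were high. In replicate 1 Flii was high (13.5 FPKM against 13.04 to 13.11) and Slc3a1 low (165 FPKM against 189 to 193).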

How the results depend on the processing

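Of 246 values recomputed under other settings, 225 stayed within a limit set for each kind and 21 did not. The limit was 1.5 times for counts of genes and 1 SD for the rest, taken over libraries for levels and shares, over library pairs for the correlation and over sets of 3 libraries for the median CV. Part of the 225 could not have moved, so that number is not a measure of robustness. List sums and the shares of the highest and the mitochondrially encoded genes do not depend on the threshold. Leaving out 1 library cannot move a mean level or share by 1 SD. Members numbered 11546 with a mean of at least 0.5 FPKM, 8741 with at least 2 FPKM and 9477 with 1 FPKM in every library. The median CV was 15.3% with a mean of at least 0.5 FPKM, 13.3% with at least 2 FPKM, 22.7% with no threshold, 13.4% with 1 FPKM in every library and 11.2% with the median over libraries in place of the mean. Members with a CV over 50% numbered 848, 323, 4732 and 230 under the first 4 of these settings, and with no threshold there were 16744 members. The lowest correlation between libraries was 0.975 with no threshold, 0.970 with 1 FPKM in every library and 0.933 on log2(FPKM + 0.1). Without the mitochondrially encoded genes the 10 highest genes held 24.4%, the 100 highest 39.6% and Slc genes 3.63% of the summed FPKM. Scaling by each library's own reads moved the S1 and S2 sum to 1770.0 FPKM. Leaving out 1 library at a time gave a median CV of 13.1 to 14.3%, 346 to 604 members with a CV over 50% (membership being redefined each time), 10248 to 10364 members and a lowest correlation of 0.955 to 0.972, the last without replicate 4. Leaving out genes with near-identical copies was chosen after seeing the data and kept the 3 values recomputed for it within these limits. No paired analysis was possible because there is 1 group and no test. Below 10 FPKM the median counting CV of 5.78% limits how closely levels can be compared.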
